A study of Homo sapiens with 6 samples.

Results

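The human mitochondrial genome carries 37 genes, all of which were present in the deposited expression table of 58735 genes. They were taken by annotation, as every gene that GENCODE release 29 places on chromosome M, and comprised 13 protein-coding genes, 2 ribosomal RNA (rRNA) genes and 22 transfer RNA (tRNA) genes. RNA-seq libraries, read from both ends, were made from total RNA of HOK-16B, a human cell line of immortalized keratinocytes from the oral epithelium. One group of 3 libraries came from cells treated with CBD (cannabidiol, a compound of the cannabis plant) and the other group of 3 from cells given the vehicle excipient. By the series description all cells of both groups also received an inflammatory stimulus, with CBD or vehicle given beforehand. The sources used here do not give the stimulus, the dose or the time, and no unstimulated group was analysed here.

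Mitochondrial DNA is a small circular genome that is copied and transcribed inside the organelle. Its 13 proteins are all core subunits of the machinery of oxidative phosphorylation, which passes electrons from nutrients to oxygen and uses the energy to make ATP. The rRNAs and tRNAs serve the organelle's own ribosomes, whose proteins are made from nuclear genes. Both strands are transcribed as long precursors, and the tRNAs that lie between the mRNAs mark the places where processing enzymes cut these precursors apart. The transcripts of the heavy-strand promoter carry 12 of the mRNAs, both rRNAs and 14 tRNAs, while those of the light-strand promoter carry MT-ND6 and 8 tRNAs. In keratinocytes, as in most cell types, mitochondrial mRNAs are among the most abundant polyadenylated RNAs.

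The compactness of the genome shows in the annotation and bears on how fragments could be assigned. Of the tRNA genes MT-TI and MT-TQ, on opposite strands, share 3 bases, and MT-TC and MT-TY share 1 base. Of the mRNA genes MT-ATP8 and MT-ATP6 share 46 bases, MT-ATP6 and MT-CO3 share 1 and MT-ND4L and MT-ND4 share 7. MT-ATP8 with MT-ATP6, and MT-ND4L with MT-ND4, are read from a joint transcript in different reading frames. The ends of MT-ATP8 and MT-ND4L are given 5′ to 3′ from the GENCODE 29 transcripts on GRCh38 because the bases in capitals belong to the next gene as well.
MT-ATP8, chrM:8513-8572, plus strand: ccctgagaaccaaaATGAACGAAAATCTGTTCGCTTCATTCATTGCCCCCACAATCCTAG
MT-ND4L, chrM:10737-10766, plus strand: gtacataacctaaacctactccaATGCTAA
Each run of capitals opens with the ATG start codon of the downstream gene. The genes also lack much of what nuclear mRNAs have at the 3′ end. Of the 13 mRNA genes 7 have a length that is a multiple of 3. In the other genes the annotated sequence stops inside a codon, after T in 5 and after TA in 1 (MT-ND1), and the stop codon is known to be completed by the poly(A) tail.

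Of the 22 tRNA genes the 4 with the most fragments, by the mean over the 6 libraries, are all read from the light strand. In vehicle replicates 1 and 3 the heavy-strand gene MT-TL1 held more fragments than MT-TY (180 against 19 and 175 against 127). The 4 genes are printed here because the tRNA results turn on them, with the anticodon in capitals, from the same source and in the DNA alphabet.
MT-TN, chrM:5657-5729, minus strand: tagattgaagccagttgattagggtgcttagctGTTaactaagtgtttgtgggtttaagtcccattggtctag
MT-TC, chrM:5761-5826, minus strand: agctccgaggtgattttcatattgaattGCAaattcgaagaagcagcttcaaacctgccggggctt
MT-TY, chrM:5826-5891, minus strand: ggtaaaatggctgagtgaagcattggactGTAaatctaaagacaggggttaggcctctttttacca
MT-TP, chrM:15956-16023, minus strand: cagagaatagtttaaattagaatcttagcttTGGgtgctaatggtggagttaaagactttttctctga
These 4 genes encode the tRNAs for asparagine, cysteine, tyrosine and proline. MT-TN, MT-TC and MT-TY belong to a cluster of light-strand tRNA genes between MT-ND2 and MT-CO1, and the gap of 31 bases between MT-TN and MT-TC is where the origin of light-strand replication is known to lie.

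The libraries held 19010494 to 22158614 fragments in genes with CBD and 18213784 to 21200871 with vehicle. Values are FPKM, fragments scaled to gene length and to a library total that, as implied by the values, was 7.66% to 8.53% above the fragments counted in genes, for a reason the sources used here do not give. Percents of fragments in the text are of the fragments in genes. In a gene of 1 kb, 3 fragments were worth 0.126 to 0.153 FPKM, depending on the library, which covers counting error only. On the first principal component vehicle replicates 1 to 3 scored 25.1, -0.739 and 9.36, and the CBD libraries -12.7 to -10.3. The component thus separated the groups as well, with vehicle replicate 1 furthest out. The differences of the mitochondrial genes named are therefore given with and without vehicle replicate 1. Averaged over fragments, the GC content of the transcripts was 51.2% to 51.3% with CBD and 50.2% to 50.9% with vehicle. All 7 keratinocyte markers had a mean of at least 1 FPKM (48.7 to 3330 FPKM), and their summed level was 9235 to 9633 FPKM with CBD and 7486 to 8721 FPKM with vehicle. Of the markers of other cell types, only COL1A1 among 7 for fibroblasts and PMEL among 4 for melanocytes did so, none of 5 for leukocytes or 4 for endothelium did, and PDGFRA, CD3E and TYR were at 0 in every library. The fibroblast markers summed to 8.94 to 8.99 FPKM with CBD and 6.94 to 7.70 FPKM with vehicle. Nearly all of this was COL1A1, with a mean of 7.91 FPKM over the 6 libraries. The part of any fibroblasts in the results below was not tested. The labels do not say that replicates came from separate cultures, so p-values reflect variation among these 6 libraries alone, and that variation may be technical.

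Transcripts of the mitochondrial genome took 4.34%, 4.47% and 4.85% of the fragments in CBD replicates 1 to 3 and 4.95%, 4.64% and 5.10% in vehicle replicates 1 to 3. The groups overlapped, since CBD replicate 3 lay above vehicle replicate 2. The means were 4.55% ± 0.265 with CBD and 4.89% ± 0.235 with vehicle (SD, n = 3 each), a difference of -0.34 percentage points that ranged from -0.49 to -0.24 when any single library was left out. In bulk RNA a lower share can reflect fewer mitochondrial transcripts per cell, more nuclear transcripts per cell, or fewer cells rich in mitochondrial transcripts. These cannot be told apart here, and the difference in share was not tested. Within the mitochondrial fragments the 13 mRNAs took 92.1% to 93.2% with CBD and 92.8% to 93.7% with vehicle. The rRNAs took 6.21% to 7.33% and 5.98% to 6.64%, and the tRNAs 0.550% to 0.587% and 0.308% to 0.608%, in CBD and vehicle libraries in that order.

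**Figure D1:**
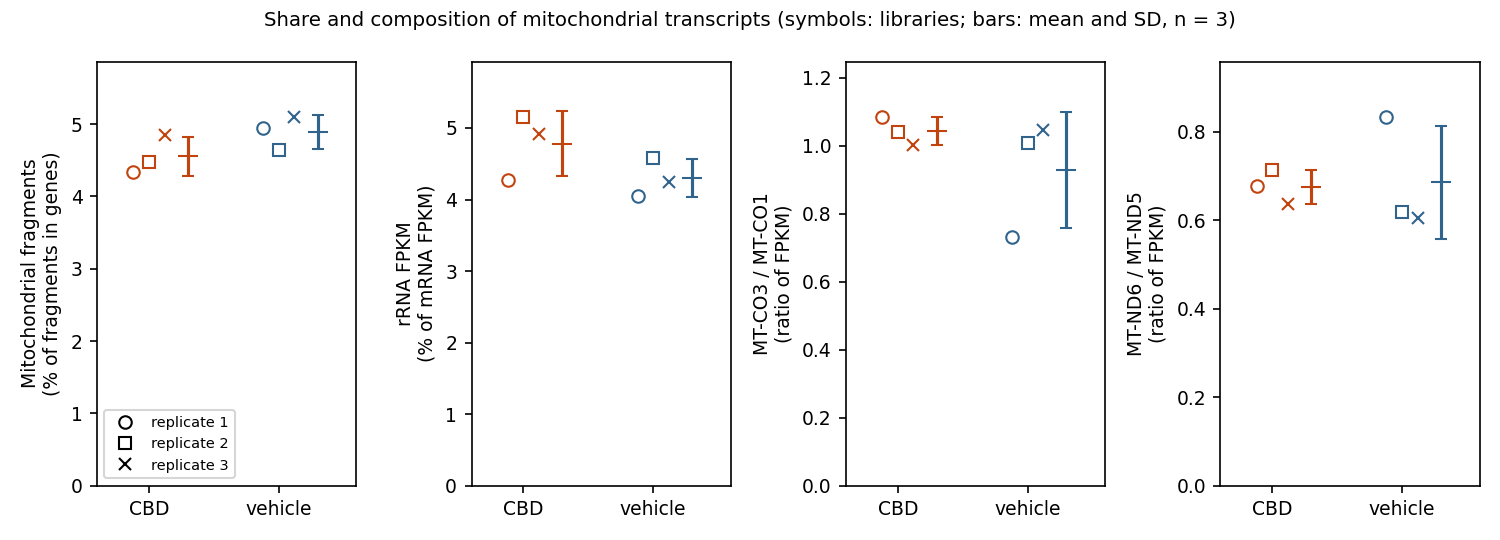
Share and composition of the mitochondrial transcripts in each library, CBD left and vehicle right, with axes starting at 0. Symbols are libraries and bars the mean with SD (n = 3); from left to right the panels give the percent of gene fragments that were mitochondrial, rRNA FPKM as percent of mRNA FPKM, and the FPKM ratios MT-CO3 to MT-CO1 and MT-ND6 to MT-ND5. In the ratio panels vehicle replicate 1, at 0.732 and 0.834, lies away from the other 5 libraries.

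The comparison asked whether the level of any mitochondrial transcript differed between CBD and vehicle. No mitochondrial gene passed. By limma on log2(FPKM + 1), with Benjamini-Hochberg adjustment over all 12517 genes with a mean of at least 1 FPKM and a threshold of 0.05, 0 of the 37 were higher and 0 lower, against 0.256% of all tested genes called higher, 0.0959% called lower and 0.352% in either direction. All 37 passed the filter on low values. The smallest adjusted p was 0.0819, for MT-TP. At an unadjusted p under 0.05 there were 4 members (10.8%), against 31.4% of all tested genes. The groups were fully separated in 4 members (10.8%), against 40.7% of all tested genes. Of these, 1 had CBD above (MT-TQ), against 18.7% of all, and 3 had CBD below (MT-ND4L, MT-TP and MT-TS1), against 21.9%. The separation is in FPKM, and in fragments MT-TS1 was tied at 3 in CBD replicate 1 and vehicle replicates 1 and 2. With limma-voom on the recovered fragments 1 member, MT-TP, was called lower, against 5.42% of all genes (none was called higher, against 8.08%), and 5 had an unadjusted p under 0.05, against 34.3% of all genes. Library weights were 0.2075, 0.4124 and 5.428 for vehicle replicates 1 to 3 (gene-by-gene estimates 0.2027, 0.4943 and 2.908). Most of the vehicle weight thus lay on vehicle replicate 3. With these weights 1 member was called higher, against 21.7% of all genes, and 11 lower, against 22.9%. With the gene-by-gene estimate 1 was called higher, against 16.9%, and 6 lower, against 17.1%. The higher one was MT-TQ with both estimates. Of the mRNAs, MT-CO2 and MT-ND4L were called lower with both estimates, and MT-CO1, MT-ND2 and MT-ATP8 with the default one alone. Of the 13 mRNAs 11 had a difference below 0 and the median was -0.10, beside -0.01 for all tested genes, of which 52.6% lay below 0. Without vehicle replicate 1, 11 of the 13 lay below 0 with a median of -0.08, and limma-voom also gave 11 with a median of -0.08. With a trend in transcript GC content removed from each library, 8 of the 13 lay below 0 and the median was -0.01. GC content averaged over fragments was itself separated between the groups, so a GC trend and a group difference cannot be told apart here. The 37 mitochondrial genes have GC contents of 23.1% to 49.3%, with a median of 42.7% against 49.5% for all tested genes. The 13 mRNAs among them have 39.6% to 47.7%.

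**Figure D2:**
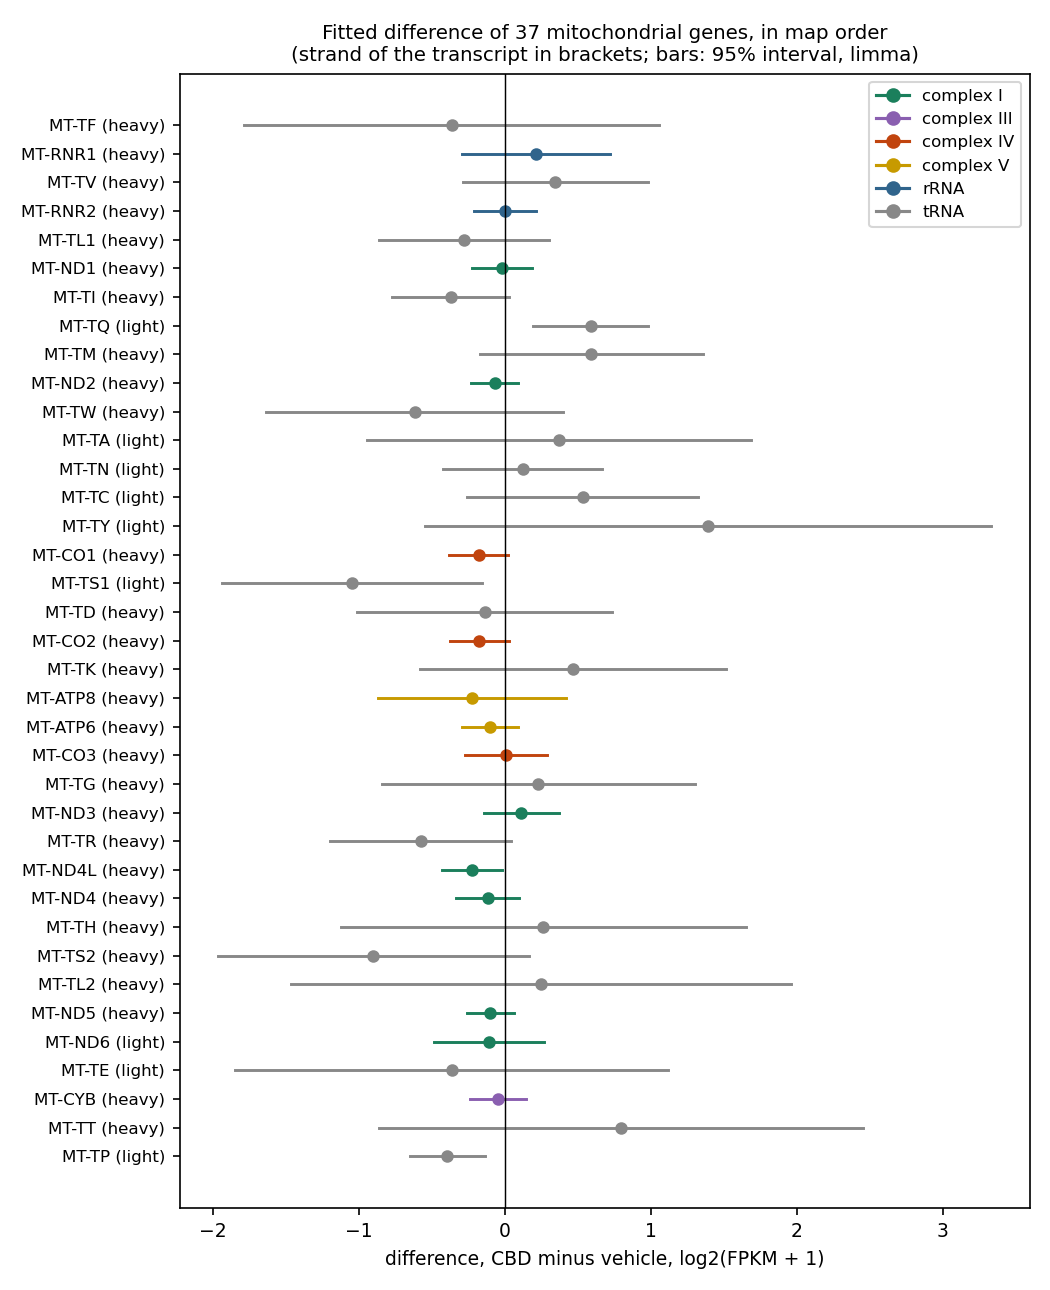
Fitted difference (CBD minus vehicle, log2(FPKM + 1)) of each of the 37 mitochondrial genes in map order from top to bottom, with the 95% interval from limma as a bar and the class of the gene as colour. Intervals of the mRNAs and rRNAs are narrow beside those of most tRNAs, and those of MT-TQ, MT-TS1, MT-ND4L and MT-TP leave out 0, before any adjustment for the number of genes tested.

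The levels of the longer transcripts were ordered alike in all libraries. MT-CO2 had the highest FPKM of the 15 mRNAs and rRNAs in every library, and MT-ATP6 had rank 4, MT-ND2 rank 7 and MT-ND5, MT-ND6, MT-RNR1 and MT-ATP8 the last 4, each at the same place in all 6 libraries. Neighbours that changed places were MT-CO1 with MT-CO3 and MT-ND4L with MT-ND4. MT-ND1, MT-ND3, MT-CYB and MT-RNR2 shared ranks 8 to 11, so their order is within the spread between libraries.

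**Figure D3:**
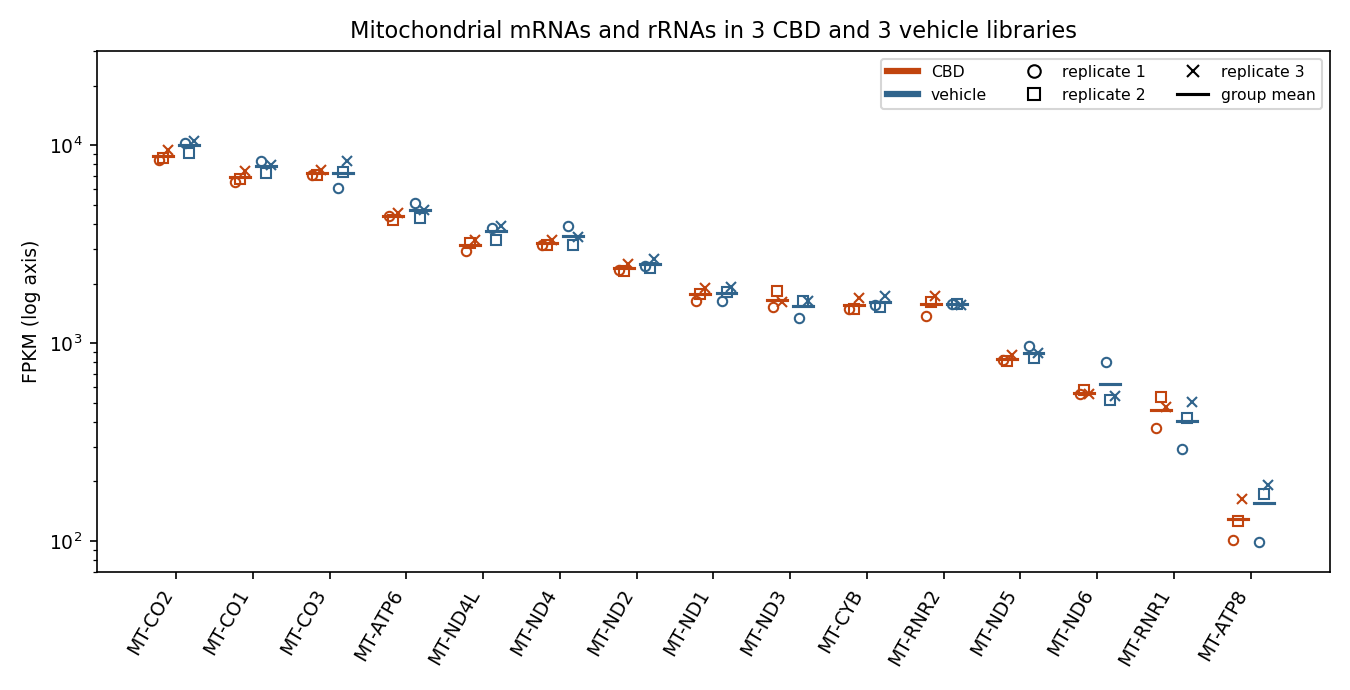
FPKM (log axis) of the 13 mitochondrial mRNAs and 2 rRNAs in each library, ordered by mean level, CBD left and vehicle right of each position. Symbols are replicates and lines group means; MT-CO2 averaged 8817 FPKM with CBD and 9965 FPKM with vehicle, at the top, and MT-ATP8 130 FPKM with CBD and 155 FPKM with vehicle, at the bottom.

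Complex IV, cytochrome c oxidase, hands electrons to oxygen, and its 3 mitochondrial subunits form the catalytic core. They made up 53.9% ± 0.326 of the mRNA FPKM with CBD and 54.4% ± 1.14 with vehicle (SD, n = 3 each). MT-CO1, the subunit that holds the oxygen-reducing centre, had 6515, 6776 and 7443 FPKM in CBD replicates 1 to 3 and 8280, 7225 and 7960 FPKM in vehicle replicates 1 to 3. CBD replicate 3 lay above vehicle replicate 2, so the groups overlapped in this 1 place. The fitted log2 difference of MT-CO1 was -0.18 ± 0.09 (SE; 95% interval -0.38 to 0.02; limma adjusted p = 0.198), and -0.14 without vehicle replicate 1. MT-CO2, which takes electrons from cytochrome c, had 8436, 8610 and 9406 FPKM with CBD and 10201, 9137 and 10557 FPKM with vehicle, an overlap of the same 2 libraries. Its difference was -0.18 ± 0.09 (SE; limma adjusted p = 0.204), and -0.16 without vehicle replicate 1.

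MT-CO3, the remaining core subunit of complex IV, did not follow the other subunits in vehicle replicate 1. It had 7068, 7058 and 7465 FPKM with CBD and 6059, 7291 and 8323 FPKM with vehicle, so the vehicle values lay on both sides of the CBD values. Its fitted log2 difference was 0.01 ± 0.12 (SE; 95% interval -0.27 to 0.29; limma adjusted p = 0.976), and -0.11 without vehicle replicate 1. The FPKM ratio of MT-CO3 to MT-CO1 was 1.08, 1.04 and 1.003 with CBD and 0.732, 1.01 and 1.05 with vehicle. The low ratio thus belonged to vehicle replicate 1 among the 6 libraries.

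Complex I, NADH dehydrogenase, is the entry point of electrons from NADH, and 7 of its subunits are mitochondrial. They made up 31.9% ± 0.614 of the mRNA FPKM with CBD and 31.6% ± 0.654 with vehicle (SD, n = 3 each). All 7 are membrane subunits of the proton-pumping arm. Of the 7, 6 had a difference below 0 and none passed by limma, with 1, MT-ND4L, at an unadjusted p under 0.05. MT-ND4L had 2918, 3195 and 3307 FPKM with CBD and 3805, 3326 and 3913 FPKM with vehicle. Every CBD value lay below every vehicle value, with CBD replicate 3 and vehicle replicate 2 close to each other. The difference was -0.23 ± 0.09 (SE; 95% interval -0.43 to -0.02; limma adjusted p = 0.132; exact permutation p = 0.1, the smallest possible with 3 libraries in each group), and -0.20 without vehicle replicate 1.

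MT-ND4, which shares its mRNA with MT-ND4L, had 3146, 3124 and 3332 FPKM with CBD and 3900, 3134 and 3432 FPKM with vehicle, and the groups overlapped. Vehicle replicate 1 was the highest of the 6 libraries. The difference was -0.12 ± 0.09 (SE; limma adjusted p = 0.390), but -0.04 without vehicle replicate 1 and -0.19 without vehicle replicate 2. The ratio of MT-ND4 to MT-ND4L in FPKM was 0.978 to 1.08 with CBD and 0.877 to 1.02 with vehicle, so both reading frames of this transcript were counted at nearly the same level per length in each library. MT-ND1 averaged 1764 ± 141 FPKM with CBD and 1791 ± 139 FPKM with vehicle (SD, n = 3 each), and MT-ND2 2392 ± 107 and 2511 ± 141 FPKM in the same order. MT-ND3 was the member of complex I with a difference above 0, at 0.11 ± 0.11 (SE; limma adjusted p = 0.506), from 1517, 1838 and 1608 FPKM with CBD and 1333, 1629 and 1641 FPKM with vehicle. That value rested on vehicle replicate 1, the lowest of the 6 libraries, and was 0.01 without it and 0.03 without CBD replicate 2. MT-ND5 averaged 834 ± 29.8 FPKM with CBD and 896 ± 62.6 FPKM with vehicle. Without vehicle replicate 1 the differences were -0.08 for MT-ND1, -0.09 for MT-ND2 and -0.05 for MT-ND5, against -0.02, -0.07 and -0.10 with all libraries.

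MT-ND6 is the sole mRNA of the light strand and has a base composition unlike that of the others, with 35.6% G and 7.05% C, where the heavy-strand transcripts have 29.5% to 36.0% C and 6.28% to 16.2% G. It had 555, 580 and 552 FPKM with CBD and 803, 518 and 538 FPKM with vehicle. Vehicle replicate 1 was the high library, and the other 5 lay within 518 to 580 FPKM. The difference was -0.11 ± 0.16 (SE; 95% interval -0.49 to 0.27; limma adjusted p = 0.655), and 0.09 ± 0.04 without vehicle replicate 1 (limma adjusted p = 0.215). MT-ND6 abuts MT-ND5 on the opposite strand with no base between them, and its FPKM was 0.636 to 0.713 of that of MT-ND5 with CBD and 0.606 to 0.834 with vehicle. Since the strand setting of the counting was not given, reads of MT-ND6 and of RNA from the opposite strand cannot be told apart.

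Complex III passes electrons from ubiquinol to cytochrome c, and cytochrome b is its one mitochondrial subunit. MT-CYB had 1489, 1479 and 1696 FPKM with CBD and 1564, 1531 and 1722 FPKM with vehicle. In each group replicate 3 was the highest, and the groups overlapped. The difference was -0.05 ± 0.08 (SE; 95% interval -0.24 to 0.14; limma adjusted p = 0.699), and -0.07 without vehicle replicate 1.

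Complex V, ATP synthase, turns the proton gradient into ATP, and both its mitochondrial subunits belong to the membrane part. MT-ATP6, which lines the proton path, had 4391, 4176 and 4553 FPKM with CBD and 5084, 4306 and 4706 FPKM with vehicle, with overlapping groups. The difference was -0.10 ± 0.08 (SE; limma adjusted p = 0.414), but -0.04 without vehicle replicate 1, the highest library, and -0.16 without vehicle replicate 2. MT-ATP8, a small subunit read from the same mRNA, had 101, 126 and 162 FPKM with CBD and 98.7, 173 and 193 FPKM with vehicle. Replicate 1 was lowest in each group, and the groups overlapped (difference -0.23 ± 0.27, SE; limma adjusted p = 0.590), while without vehicle replicate 1 the difference was -0.52 ± 0.19 (limma adjusted p = 0.138). Although both frames lie on 1 transcript, MT-ATP6 had 28.1 to 43.6 times the FPKM of MT-ATP8 with CBD and 24.4 to 51.5 times with vehicle. MT-ATP8 is 207 bases long, of which the 46 printed in capitals also belong to MT-ATP6. How fragments that touch both genes were counted is not stated in the sources used here, and its part in the ratio was not tested.

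The rRNAs are made from the promoter-proximal end of the heavy-strand transcript and form the core of the small (MT-RNR1) and large (MT-RNR2) mitochondrial ribosomal subunits. MT-RNR2 had 1376, 1623 and 1729 FPKM with CBD and 1582, 1567 and 1558 FPKM with vehicle. The vehicle values lay close together and inside the range of the CBD values. The difference was -0.0004 ± 0.09 (SE; 95% interval -0.21 to 0.21; limma adjusted p = 0.998), and 0.0056 without vehicle replicate 1. MT-RNR1 had 374, 536 and 475 FPKM with CBD and 290, 419 and 502 FPKM with vehicle. Vehicle replicate 1 was the lowest of the 6 libraries and the groups overlapped, with a difference of 0.21 ± 0.21 (SE; limma adjusted p = 0.514), and -0.01 without vehicle replicate 1. Summed rRNA FPKM came to 4.28%, 5.16% and 4.92% of the summed mRNA FPKM with CBD and to 4.05%, 4.58% and 4.25% with vehicle. Ribosomal RNAs are the most abundant mitochondrial RNAs in cells, and a library preparation that selects poly(A) or removes rRNA lowers them, but the sources used here do not name the selection step. These values therefore do not give rRNA levels in the cells.

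The tRNAs carry amino acids to the mitochondrial ribosome. Column kits for total RNA are known to lose most RNA of this size, so fragments counted in tRNA genes need not come from mature tRNAs. In all, the tRNA genes held 5288, 5635 and 5216 fragments with CBD and 3230, 5716 and 4754 with vehicle. Light-strand tRNA genes took 92.2% to 94.1% of these fragments with CBD and 89.3% to 91.3% with vehicle, and MT-TN and MT-TC alone took 79.5% to 82.2% and 68.6% to 78.3% in the same order. Their mean levels over all 6 libraries, 1281 FPKM for MT-TN and 1280 FPKM for MT-TC, were above the means of MT-ND5 (865 FPKM) and MT-ND6 (591 FPKM). For a gene shorter than a sequenced fragment FPKM depends on how partial overlaps were counted, so these levels are descriptive. Light strand here means the annotated strand of the gene. Since the strand setting of the counting was not given, fragments of RNA from the opposite strand cannot be told apart in these shares.

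MT-TC had 1437, 1428 and 1522 FPKM with CBD and 559, 1524 and 1211 FPKM with vehicle. MT-TN had 1121, 1451 and 1378 FPKM with CBD and 823, 1406 and 1503 FPKM with vehicle. MT-TY had 156, 137 and 173 FPKM with CBD and 12.6, 154 and 98.1 FPKM with vehicle. All 3 neighbours were lowest in vehicle replicate 1, and all 3 had overlapping groups. MT-TY in vehicle replicate 1 rested on 19 fragments, against 209 to 246 with CBD and 127 to 223 in the other vehicle libraries. The log2 differences were 0.53 ± 0.33 for MT-TC, 0.12 ± 0.23 for MT-TN and 1.39 ± 0.82 for MT-TY (SE; limma adjusted p = 0.305, 0.732 and 0.276). Without vehicle replicate 1 they were 0.11, -0.15 and 0.33.

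MT-TP, the proline tRNA gene at the far end of the map, lay the other way. It had 243, 278 and 306 FPKM with CBD and 409, 342 and 336 FPKM with vehicle, from 394 to 437 and 448 to 635 fragments. Every CBD value was below every vehicle value. The difference was -0.39 ± 0.11 (SE; 95% interval -0.65 to -0.14; limma adjusted p = 0.0819; exact permutation p = 0.1, the smallest possible), and -0.31 ± 0.09 without vehicle replicate 1 (limma adjusted p = 0.107). Limma-voom on the recovered fragments gave -0.39 and called it (adjusted p = 0.0429), and the limma adjusted p ranged from 0.0149 to 0.236 over the alternative settings.

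**Figure D4:**
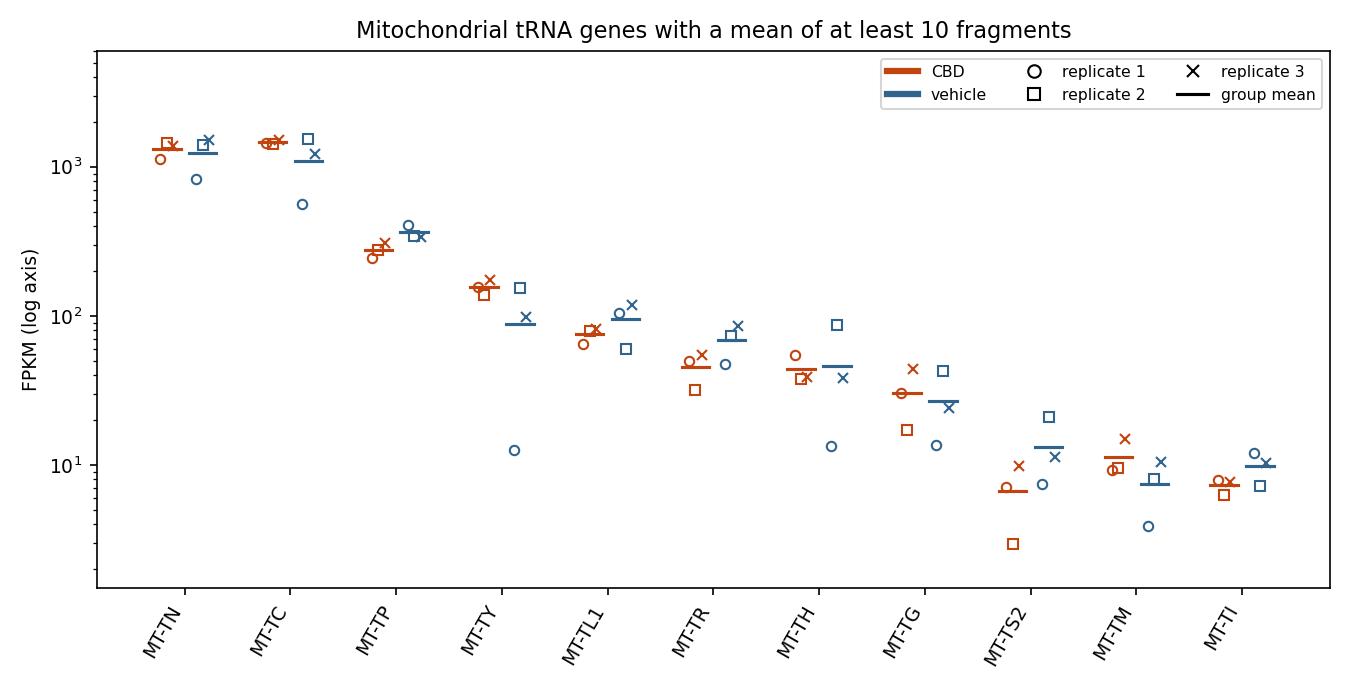
FPKM (log axis) of the 11 mitochondrial tRNA genes with a mean of at least 10 fragments per library, ordered by mean level, CBD left and vehicle right of each position. Symbols are replicates and lines group means; vehicle replicate 1 (open circles) is at 559 FPKM for MT-TC and 12.6 FPKM for MT-TY, below the other 5 libraries, and at 409 FPKM for MT-TP, above them.

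The remaining tRNA genes were low. Of the heavy-strand tRNA genes, MT-TL1 (leucine) averaged 74.9 ± 9.27 FPKM with CBD and 94.5 ± 31.1 FPKM with vehicle, and MT-TR (arginine) 45.3 ± 11.9 FPKM with CBD and 68.5 ± 19.5 FPKM with vehicle (SD, n = 3 each). MT-TH (histidine) averaged 43.6 ± 9.58 and 46.1 ± 37.2 FPKM and MT-TG (glycine) 30.5 ± 13.5 and 26.8 ± 14.9 FPKM, with CBD and vehicle in that order. MT-TI (isoleucine), MT-TM (methionine) and MT-TS2 (serine) had means of 12.7 to 13.8 fragments over the 6 libraries. None of these 7 genes passed by limma, with adjusted p of 0.181 to 0.777. None of the 7 was separated between the groups. Without vehicle replicate 1 the differences of MT-TH and MT-TG were -0.42 and -0.17, against 0.26 and 0.23 with it. Those of MT-TL1, MT-TR, MT-TI, MT-TM and MT-TS2 were -0.17, -0.82, -0.23, 0.23 and -1.22 without it, against -0.28, -0.58, -0.37, 0.59 and -0.90 with it.

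A further 11 tRNA genes had means of 1.83 to 9.83 fragments, at which counting error alone is large. MT-TQ (glutamine) rested on 7, 11 and 10 fragments with CBD and 5, 6 and 5 with vehicle, and MT-TS1 (serine) on 3, 1 and 0 fragments with CBD and 3, 3 and 5 with vehicle. Their values did not overlap between the groups in FPKM, and neither passed by limma (adjusted p = 0.0846 and 0.118). Their fitted differences were 0.59 and -1.05, and 0.52 and -1.17 without vehicle replicate 1. The other 9 had overlapping groups.

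Of the 15 mRNAs and rRNAs, vehicle replicate 1 was the highest library for 5 and the lowest for 4. Vehicle replicate 3 was the highest for 7, and CBD replicates 1 and 2 were the lowest for 5 each. The genes highest in vehicle replicate 1 were MT-CO1, MT-ATP6, MT-ND4, MT-ND5 and MT-ND6, and those lowest in it were MT-ATP8, MT-CO3, MT-ND3 and MT-RNR1. Its values were 1.52 times the mean of the other 2 vehicle libraries for MT-ND6 and 0.540 times for MT-ATP8. Across the 15 genes, which share each library's depth and are not independent, log2 levels correlated between vehicle replicates 2 and 3 at Pearson 0.999, between vehicle replicate 1 and these at 0.984 and 0.980, and among CBD libraries at 0.996 to 0.997.

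Nuclear pseudogene copies of mitochondrial genes can take fragments from the members or lend them. Of 417 such copies found by symbol, 340 were at 0 in every library and 3 had a mean of at least 1 FPKM. All 3 lie on chromosome 1. MTATP6P1 had 296, 374 and 326 FPKM with CBD and 577, 347 and 371 FPKM with vehicle, MTND2P28 averaged 231 ± 6.83 and 239 ± 34.2 FPKM, and MTCO1P12 13.2 ± 2.29 and 10.5 ± 2.34 FPKM, with CBD and vehicle in that order (SD, n = 3 each). MTATP6P1 was highest in vehicle replicate 1, as was MT-ATP6. None of the 3 passed by limma (adjusted p = 0.253, 0.811 and 0.248). Their differences were -0.35, -0.04 and 0.32, and -0.12, 0.03 and 0.15 without vehicle replicate 1. Fragments in all copies amounted to 1.10% to 1.26% of the mitochondrial fragments with CBD and 1.09% to 1.49% with vehicle. For single genes the part differed. Averaged over the 6 libraries, MTATP6P1 held 5732.5 fragments beside 67912 in MT-ATP6, and MTND2P28 held 5391 beside 56047 in MT-ND2. MTCO1P12 held 405 beside 249223 in MT-CO1.

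Expression of the mitochondrial genome depends on nuclear genes. Of 114 symbols listed for mitochondrial DNA maintenance, transcription, RNA processing, RNA modification, translation and biogenesis, 113 were matched and 110 tested, and 0 were higher and 0 lower by limma. At an unadjusted p under 0.05 there were 33, where 31.4% of all tested genes had one, and limma-voom called 2 higher, against 8.08% of all tested genes, and 13 lower, against 5.42%. Other settings also called list members. Library weights called 11 higher and 39 lower, against 21.7% and 22.9% of all tested genes. Gene-by-gene weights called 8 and 29, against 16.9% and 17.1%. Without vehicle replicate 2 there were 4 and 18, against 1267 and 1084 of all 12517 genes. At a mean FPKM of at least 5 there were 1 and 4, against 427 and 305 of the 7275 genes tested there. Of the 110, 83 had a difference below 0. Their median was -0.09, and -0.07 with the GC trend removed or without vehicle replicate 1, beside -0.01 to -0.02 for all tested genes in these 3 fits.

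**Figure D5:**
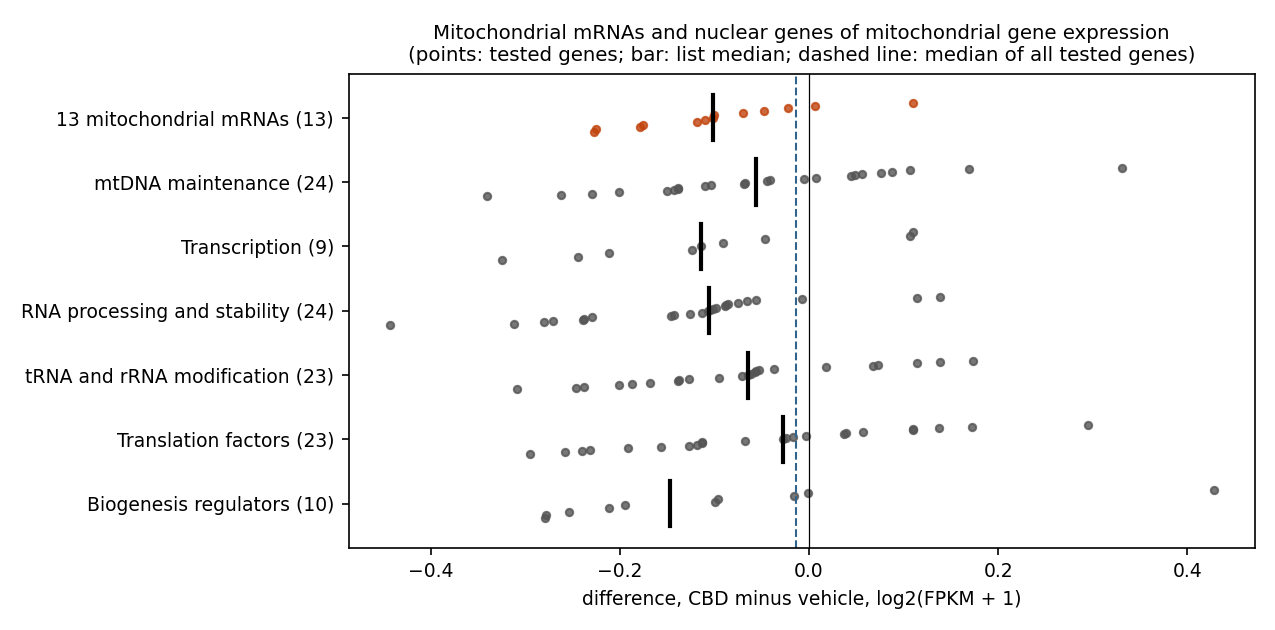
Fitted differences (CBD minus vehicle, log2(FPKM + 1)) of the 13 mitochondrial mRNAs and of the tested genes in 6 nuclear lists, with the number tested in brackets. Points are genes, bars list medians and the dashed line the median of all 12517 tested genes (-0.01); the list medians run from -0.15 for biogenesis regulators to -0.03 for translation factors.

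Transcription of the mitochondrial genome needs the polymerase POLRMT with the factors TFAM and TFB2M. Of 9 transcription genes 7 had a difference below 0, with a median of -0.11, and 4 of 9 with a median of 0.002 once the GC trend was removed; 3 had an unadjusted p under 0.05. TFAM, which packages mitochondrial DNA and opens its promoters, averaged 12.4 ± 0.440 FPKM with CBD and 14.5 ± 0.562 FPKM with vehicle (SD, n = 3 each; difference -0.21, limma adjusted p = 0.0703). TFB1M, an rRNA methyltransferase, averaged 2.25 ± 0.252 and 3.09 ± 0.648 FPKM (limma adjusted p = 0.128), and MTERF3, a member of the MTERF family, 9.62 ± 0.721 and 11.6 ± 1.47 FPKM (0.134), in the same order.

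RNA processing and stability genes included the enzymes that cut the precursors at tRNAs. Of 24 tested 22 had a difference below 0, with a median of -0.11, and 21 of 24 with a median of -0.09 after removal of the GC trend; 8 had an unadjusted p under 0.05. TRMT10C, a subunit of mitochondrial RNase P, averaged 24.5 ± 0.591 FPKM with CBD and 30.7 ± 3.75 FPKM with vehicle (difference -0.31, limma adjusted p = 0.0792). PNPT1, a mitochondrial RNA-degrading enzyme, averaged 16.96 ± 1.39 and 23.6 ± 4.30 FPKM (0.0866), and FASTKD2, an RNA-binding protein needed for mitochondrial ribosome assembly, 6.60 ± 0.353 and 8.26 ± 0.947 FPKM (0.0875). These 3 were named for their small p. In the list as a whole 11 of 24 had separated groups, against 40.7% of all tested genes. Over all lists, with each gene once, 40 of 110 did. The other lists had 8 of 24 for DNA maintenance, 2 of 9 for transcription and 6 of 23 for RNA modification. Translation factors had 9 of 23 and biogenesis regulators 6 of 10.

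In the RNA modification list 17 of 23 tested genes were below 0 (median -0.06; 5 with an unadjusted p under 0.05), and 21 of 23 with a median of -0.11 after removal of the GC trend. NSUN2, a cytosine methyltransferase of tRNAs, averaged 14.5 ± 0.640 FPKM with CBD and 17.4 ± 1.19 FPKM with vehicle (limma adjusted p = 0.0753). QTRT2, of the queuosine pathway, averaged 6.76 ± 0.394 and 8.16 ± 0.574 FPKM (0.0841), and OSGEPL1, of threonylcarbamoyl-adenosine synthesis, 2.81 ± 0.319 and 3.72 ± 0.364 FPKM (0.0866). Among 23 translation and assembly factors 15 were below 0 (median -0.03; 8 with an unadjusted p under 0.05), and 16 with a median of -0.05 after that correction. The initiation factor MTIF2 averaged 11.6 ± 0.545 FPKM with CBD and 14.4 ± 0.955 FPKM with vehicle (limma adjusted p = 0.0613), and the ribosome recycling factor MRRF 6.61 ± 0.291 and 7.94 ± 0.449 FPKM (0.0738). COX14, which takes part in MT-CO1 synthesis and complex IV assembly, lay the other way at 18.2 ± 0.781 and 14.6 ± 0.871 FPKM (0.0604).

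Among 24 mitochondrial DNA maintenance genes 15 were below 0 (median -0.06; 5 with an unadjusted p under 0.05), and 17 with a median of -0.03 after removal of the GC trend. The helicase TWNK averaged 6.45 ± 0.364 FPKM with CBD and 7.73 ± 0.0988 FPKM with vehicle (limma adjusted p = 0.0668), the nuclease-helicase DNA2 5.67 ± 0.379 and 7.48 ± 1.10 FPKM (0.0855), and the inner-membrane fusion protein gene OPA1 15.3 ± 0.431 and 18.7 ± 2.19 FPKM (0.0953). Of 10 biogenesis regulators 9 were below 0 (median -0.15; 6 with an unadjusted p under 0.05), and 7 with a median of -0.11 after removal of the GC trend. PPRC1, a coactivator of the PGC-1 family, averaged 12.7 ± 0.487 FPKM with CBD and 15.6 ± 0.708 FPKM with vehicle (limma adjusted p = 0.0585). The nuclear receptor gene ESRRA, with a GC content of 65.3%, lay above at 50.6 ± 1.90 and 37.7 ± 7.02 FPKM (0.0884). Without vehicle replicate 1 all 17 nuclear genes named here had the same sign and 12 lay nearer 0, among them TFB1M (-0.20, against -0.32), MTERF3 (-0.16, against -0.24) and ESRRA (0.28, against 0.43).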

How the data were processed

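The authors deposited 1 table of FPKM values, 1 per gene and library, not pooled, per the file headers. HISAT2 2.0.5 (alignment) and featureCounts 1.5.0-p3 (counting) are listed in the submitters' processing notes; for build, annotation, strand setting and filters the sources used here give nothing. The free-text description numbers the line differently in each sample, while title and cell line tag give HOK-16B, which was used. All 58735 identifiers matched GENCODE 29 (GRCh38). FPKM times exon-union length, rescaled by library, came to whole fragments for 100.0% of values (tolerance 0.01 fragment).

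Differences were fitted with limma 3.58.1 in R 4.3.3 on log2(FPKM + 1), a scale that understates changes of low genes, for genes averaging at least 1 FPKM. Group was the only term, with an intensity trend; tests were two-sided with Benjamini-Hochberg adjustment over 12517 genes. Exact permutation tests were two-sided over 20 splits. A loess trend (span 0.3) in GC content was removed in 1 alternative. The fit was tested on simulated data. The text names all mRNAs and rRNAs, tRNA genes with a mean of at least 10 fragments, nuclear copies averaging at least 1 FPKM, and in each nuclear list the 3 genes with the smallest adjusted p and any called; MT-TQ and MT-TS1 were named after their values were seen. Members and lists were chosen with earlier results of these data known. Tables and plots were made in Python 3.11.15 (pandas 2.3.3; matplotlib 3.10.9; numpy 2.4.6).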

Additional observations from a re-analysis of the deposited data

How the results depend on the processing

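Over all genes 32 were called higher and 12 lower with CBD. These counts were 2711 and 2863 with library weights, whose default estimate stopped before convergence, and 2112 and 2140 with gene-by-gene weights, an alternative added after seeing the data. They were 1011 and 678 with limma-voom, 427 and 305 at a mean FPKM of at least 5, 54 and 19 after quantile normalization, 0 and 1 without the intensity trend, and 0 and 0 without a filter or with the GC trend removed. Higher calls numbered 56 with median-ratio scaling and 58 with a pseudocount of 5. Leaving out 1 library gave 0 to 1267 higher and 0 to 1084 lower, with 1267 and 1084 without vehicle replicate 2, 59 and 22 without vehicle replicate 1, and at most 1 without any other library. The counts were 2 and 2 without vehicle replicate 1 when the filter was recomputed, which was also added after seeing the data. With the replicate number as a block 0 were higher and 0 lower (3676 at an unadjusted p under 0.05). Same-numbered deviations correlated at -0.0027, 0.0524 and 0.0235, and differently numbered ones at -0.0522 to 0.0282. Correlations this low cannot show whether same-numbered samples were paired, because pairing may touch only some genes. The labels give a number and do not settle it.

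Of the 37 mitochondrial genes default weights called 1 higher and 11 lower, against 21.7% and 22.9% of all tested genes. Gene-by-gene weights called 1 higher and 6 lower, against 16.9% and 17.1%. Limma-voom called 0 higher and 1 lower, against 8.08% and 5.42%. Leaving out 1 library gave 0 to 2 lower. The 2 were MT-TL1 and MT-TI without vehicle replicate 2, where 1084 of all 12517 genes were called lower. The replicate block gave 0 and 0. Of 28 mitochondrial genes followed, 16 kept their direction in each of the 19 alternatives that gave a value, and 2 more, MT-CO2 and MT-ATP6, turned in none but had a difference of 0 after quantile normalization. The GC correction turned MT-ND1 to 0.0141, MT-ND2 to 0.0360, MT-CYB to 0.0107, MT-RNR2 to 0.107 and MTND2P28 to 0.0647. Default and gene-by-gene weights turned MT-CO3 to -0.18 and -0.16, MT-ND6 to 0.0499 and 0.0407, MT-RNR1 to -0.0959 and -0.0621, and MT-TN to -0.17 and -0.14. MT-RNR2 turned to 0.00017 with default weights, 0.0170 with limma-voom and 0.0152 with median-ratio scaling. Leaving out 1 library gave -0.0849 to 0.0359 for MT-ND1, -0.11 to 0.11 for MT-CO3, -0.224 to 0.0916 for MT-ND6, -0.11 to 0.0037 for MT-CYB, -0.0066 to 0.39 for MT-RNR1, -0.0705 to 0.0941 for MT-RNR2, -0.15 to 0.28 for MT-TN, -0.17 to 0.63 for MT-TG, -0.42 to 0.89 for MT-TH and -0.164 to 0.0304 for MTND2P28. The cause was not tested. A mean of 1.83 fragments per library, as for each of the lowest tRNA genes, limits what can be detected there.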
